A study of Mus musculus with 16 samples.

Results

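The core circadian clock genes Per1, Per2, Per3, Cry1, Cry2, Arntl, Clock, Dbp, Nr1d1 and Nr1d2 were followed array by array in the mouse hippocampus. Their members are the probe sets, groups of short array probes for one transcript, that the platform annotation pairs with one of these 10 symbols and no other. There were 23 of them among 45037 non-control probe sets. Of the 23, 17 had a mean log2 signal at or above the median of all probe sets, which corresponds to a signal of 87.9, and each of the 10 genes had at least 1 of these. Total RNA came from hippocampi of male mice aged 2 months (strain label C56/BL6) and was hybridised to 16 Affymetrix arrays, 4 per group. APP_KO has the genotype APP-/-, APLP2_KO the genotype APLP2-/-, N_dCKO the genotype APP-/-; APLP2-/-, and WT is wild type. APLP2 is a close relative of APP, the amyloid precursor protein. The series title calls the double mutant a neuronal double-conditional knockout, but the cells that carried the deletion and the Cre driver are not given in the sources used here. Neither is the time of day at which the tissue was taken. The labels number 4 replicates per group but do not tell whether each is its own animal, and the spread on which p-values rest may therefore be technical.

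The clock is a transcriptional feedback loop. The CLOCK and ARNTL (also called BMAL1) proteins pair up and activate genes through E-box elements in DNA, among them the Per, Cry and Nr1d genes and Dbp. The PER and CRY proteins then inhibit that pair, NR1D1 and NR1D2 (REV-ERB alpha and beta) repress Arntl through ROR elements, and DBP activates further genes through D-boxes. Most of these transcripts cycle over the day in many tissues, the hippocampus among them.

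Promoter sequence is shown first because it is the regulatory layer by which these genes are usually grouped. RefSeq promoter windows of 250 bases before to 50 bases after each annotated start (GRCm38.p6) were available for 9 of the 10 genes, with 13 starts in all; Per2 was not matched. The windows were searched on both strands for the E-box CACGTG, the E'-box CACGTT, the D-box TTATGTAA, the ROR element TAGGTCA and the cyclic AMP response element TGACGTCA. Among 32851 promoters of the same length, these were present in 7.15%, 4.68%, 0.938%, 2.61% and 1.79%. An E-box was found in Per1 and Cry1, an E'-box in Cry1, Cry2 and Nr1d1, D-boxes in Per3, and a ROR element in Arntl. The cyclic AMP response element was in none of the 9 genes' windows, and no 2 matches overlapped. The stretches around the matches follow, written 5′ to 3′ on the gene's strand, with the matched letters in capitals; a match on the opposite strand therefore appears as its reverse complement (AACGTG for the E'-box).
Per1, E-box, chr11:69098768-69098803, plus strand: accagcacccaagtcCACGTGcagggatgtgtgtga
Cry1, E'-box and E-box, chr10:85185094-85185148, minus strand: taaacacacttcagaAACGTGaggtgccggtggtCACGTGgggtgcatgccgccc
Cry2, E'-box, chr2:92434215-92434250, minus strand: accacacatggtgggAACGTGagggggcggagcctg
Nr1d1, E'-box, chr11:98775385-98775420, minus strand: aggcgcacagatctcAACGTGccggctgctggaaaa
Per3, D-boxes, chr4:151044801-151044885, minus strand: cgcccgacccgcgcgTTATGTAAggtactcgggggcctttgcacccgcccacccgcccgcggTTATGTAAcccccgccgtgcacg
Arntl, ROR element, chr7:113207530-113207558, plus strand: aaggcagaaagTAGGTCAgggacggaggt
The Per1 and Cry2 matches begin 166 bases before the start, those of Cry1 79 and 60 bases before it, that of Nr1d1 28 bases before it, and the Per3 pair 205 and 158 bases before it. The Arntl match lies 31 bases after its second annotated start. A match describes the letters of this window and is not a measured binding site.

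The arrays matched their labels at the deleted genes. App was at 13.6% of the WT mean in APP_KO and 11.8% in N_dCKO, and Aplp2 was at 19.4% in APLP2_KO and 16.7% in N_dCKO. All 10 hippocampal neuron markers passed the signal filter. Of 8 measured markers of the suprachiasmatic nucleus, the site of the central clock, Avp, Six6, Six3, Lhx1 and Prok2 lay below the filter, while Vip, Grp and Rgs16 lay above it. The median signal of an array ranged from 79.7 to 101.6, and the correlation of an array with the others of its group from 0.983 to 0.988.

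**Figure D1:**
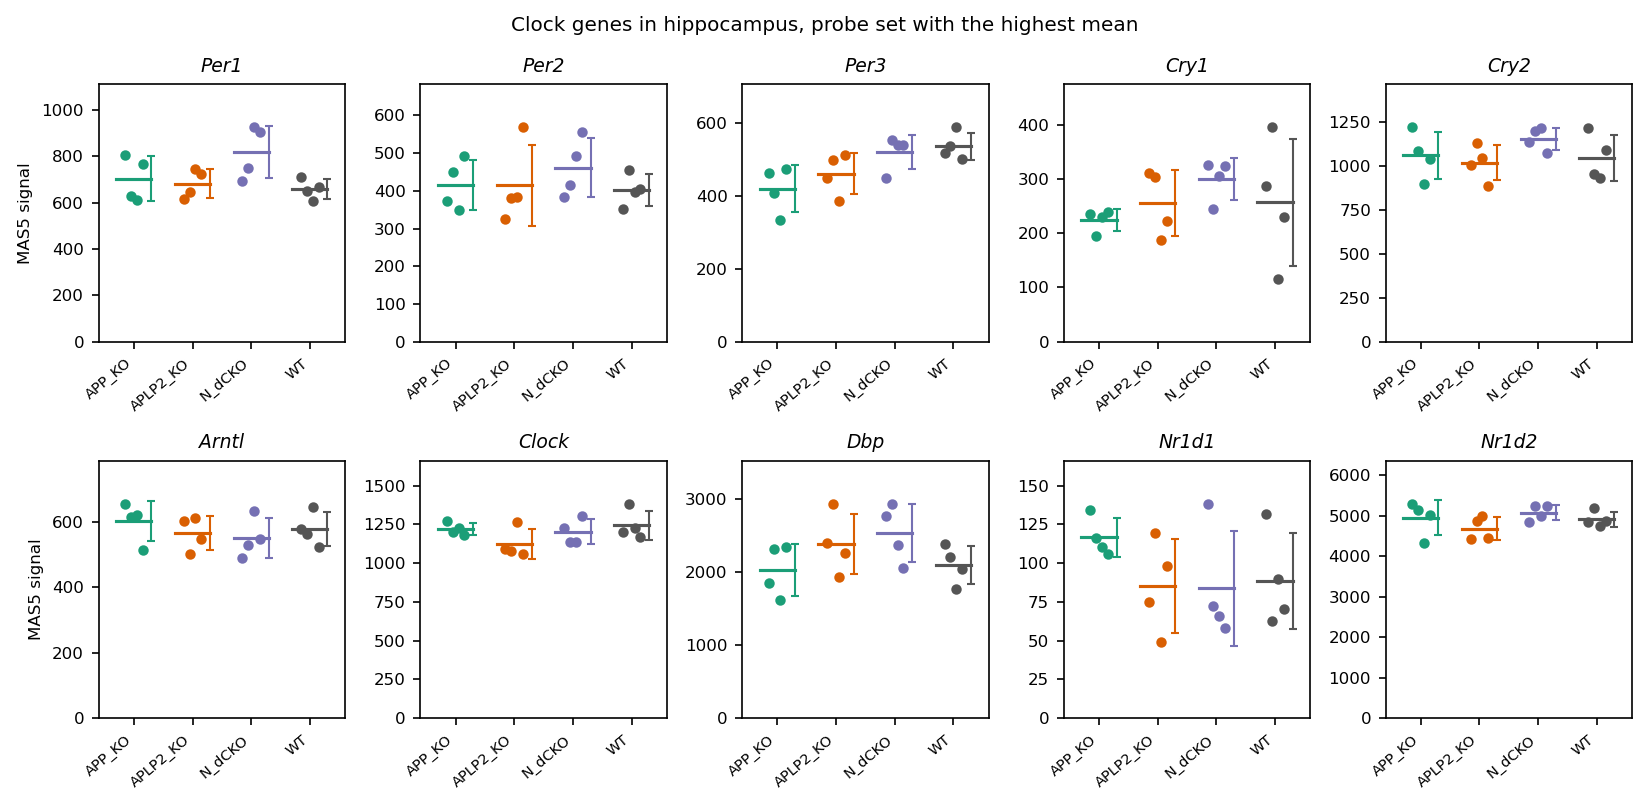
MAS5 signal (linear axis from 0) of each clock gene's probe set with the highest mean, by group; points are the 4 arrays of a group, horizontal lines group means and vertical bars the SD. The groups overlap in most panels; for Per3 the 4 APP_KO arrays (333 to 474) all lie below the 4 WT arrays (502 to 587).

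Across the 10 genes, no probe set passed the threshold of an adjusted p below 0.05 in any comparison of genotypes (limma on log2(signal + 9), Benjamini-Hochberg over all 22519 tested probe sets). In APP_KO against WT, 0 of the 17 tested clock probe sets were called, where 0.0133% of all probe sets were, and 2 had an unadjusted p below 0.05, where 4.9% of all had. A replicate block within APP_KO and WT, the groups whose same-numbered arrays deviated together, also gave 0 and 2 of the 17, while the calls over all probe sets numbered 9 in place of 3; this fit was chosen after seeing the data. In APLP2_KO against WT the counts were 0 called and 0 at the unadjusted level, beside 0.147% and 7.1% of all probe sets. In N_dCKO against WT they were 0 and 1, beside 0.666% and 11.2%. N_dCKO against APLP2_KO gave 0 and 1, beside 0.0266% and 7.5%. N_dCKO against APP_KO gave 0 called and 6 at the unadjusted level, beside 0.262% and 7.48%. Those 6 belong to only 3 genes, Per3, Dbp and Clock, and probe sets of a gene are not independent. For the interaction of both losses, the departure of N_dCKO from the sum of the single knockouts' differences, 0 were called and 2 passed unadjusted, beside 0% and 4.14%. For any difference among the 4 groups the counts were 0 and 2, beside 0.435% and 9.13%. In a fit without the signal filter, none of the 6 dim clock probe sets was called either, and their lowest adjusted p was 0.659, for Per3 1421086_at in APLP2_KO against WT (log2 fold change 1.13 ± 0.44, unadjusted p = 0.0184).

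The median log2 fold change of the 17 probe sets against WT was 0.00 for APP_KO, -0.03 for APLP2_KO and 0.13 for N_dCKO, where the median of all tested probe sets was 0.00, 0.00 and 0.01. Those 3 comparisons share the WT arrays. Positive log2 fold changes numbered 9 of 17 for APP_KO, 5 for APLP2_KO and 11 for N_dCKO. Over all tested probe sets 50.3%, 50.4% and 52% were positive. With only the probe set of highest mean for each gene, 6, 4 and 6 of 10 were. The precision differed widely between genes, as the plot of fold changes shows. For each gene's probe set with the highest mean, the widest 95% interval bound in either direction over the 3 comparisons with WT was a 1.15-fold difference for Nr1d2, 1.22-fold for Arntl and 1.23-fold for Clock. It was 1.28-fold for Cry2 and between 1.42-fold and 1.52-fold for Per1, Per2, Per3 and Dbp. For Cry1 it was 1.80-fold and for Nr1d1 1.97-fold. Such bounds hold for those probe sets only. For Clock 1435775_at, almost as bright, the 95% interval in APP_KO against WT reached a log2 fold change of -0.59. These are bulk tissue samples, in which fewer cells of a type and less RNA per cell cannot be told apart.

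**Figure D2:**
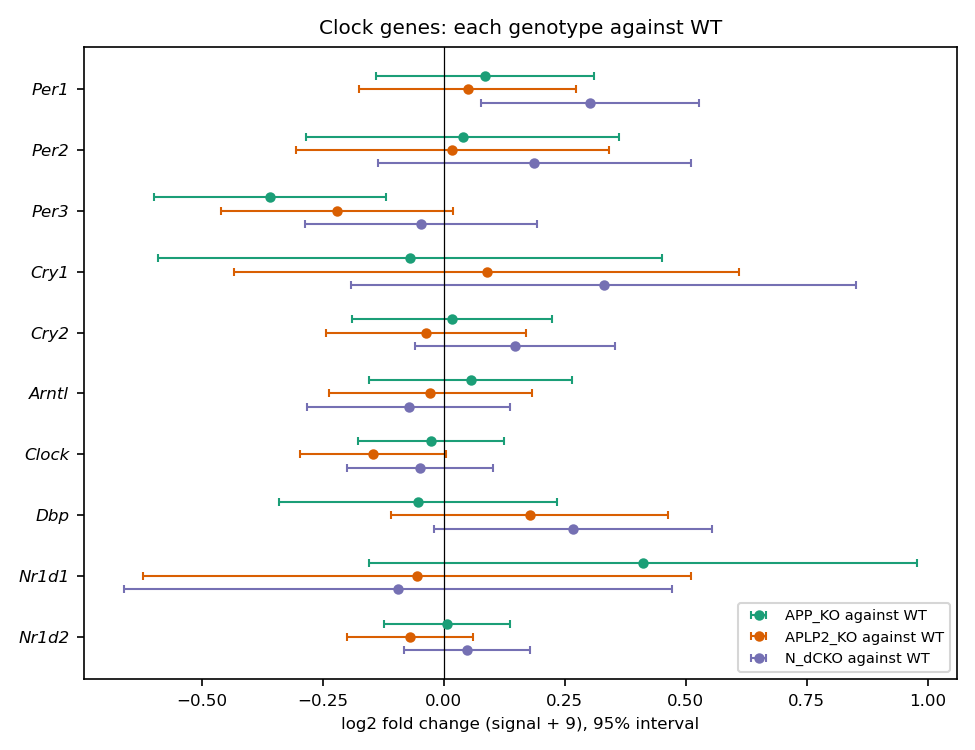
Log2 fold change of each clock gene (signal + 9, probe set with the highest mean) in APP_KO, APLP2_KO and N_dCKO against WT; points are limma estimates and bars 95% intervals from 4 arrays per group. The intervals of Per1 in N_dCKO and Per3 in APP_KO exclude 0 before adjustment, and those of Cry1 and Nr1d1 are the widest.

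Clock and Arntl, the activators, did not pass the test in any comparison. Arntl had signals of 655, 616, 621 and 514 in APP_KO, 604, 503, 612 and 549 on APLP2_KO arrays, 489, 529.6, 634 and 548 in N_dCKO, and 578, 564.5, 647 and 522 in WT. The 4 groups overlapped, and the log2 fold changes against WT were 0.06, -0.03 and -0.07, each ± 0.10 (SE). The other Arntl probe set, 1457740_at, lay below the filter, with signals of 40.5 to 106.

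Clock was read by 3 probe sets above the filter, which did not move together. Their deviations from the group means over the 16 arrays correlated at -0.21 to 0.08, whereas the pair of Dbp probe sets correlated at 0.84. Probe set 1435775_at had signals of 1126, 847, 853 and 1217 in APP_KO, 1269, 1271, 1419.7 and 972 on APLP2_KO arrays, 1179.6, 1285, 1444 and 1275 in N_dCKO, and 1448.5, 1135, 1306 and 1168 in WT. APP_KO arrays 2 and 3 were the lowest of the 16, and the groups overlapped. Its log2 fold change was -0.33 ± 0.12 in APP_KO against WT (limma adjusted p = 0.949) and 0.37 ± 0.12 in N_dCKO against APP_KO (limma adjusted p = 0.426).

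Over the same comparison of APP_KO with WT, Clock probe sets 1418659_at and 1418660_at gave -0.03 ± 0.07 and 0.00 ± 0.07. Probe set 1418660_at had signals of 920.3, 940.04, 957 and 969 in N_dCKO, against 1081, 1034, 1033 and 980.1 in APP_KO. All 4 N_dCKO arrays were therefore lower than all 4 APP_KO arrays, at a log2 difference of -0.12 ± 0.07 (limma adjusted p = 0.732), which is opposite in sign to that of 1435775_at. Probe set 1439314_at of Clock was below the filter at 52.7 to 116.

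Per1, Per2 and Per3 encode the PERIOD proteins of the inhibitory arm, and Per1 and Per3 carried the smallest p-values against WT. Per3 probe set 1421087_at had signals of 461, 406, 333 and 474 in APP_KO, 448, 497, 386 and 512 on APLP2_KO arrays, 449, 553, 538 and 538 in N_dCKO, and 518, 537, 587 and 502 in WT. Every APP_KO array was lower than every WT array, while APLP2_KO and N_dCKO each overlapped WT. The log2 fold change of APP_KO against WT was -0.36 ± 0.11 (SE, n = 4 each), with an unadjusted p of 0.00535 and a limma adjusted p of 0.887. It was the only clock probe set of the 17 without overlap in that comparison, where 2.59% of all probe sets did not overlap in either direction. In the same comparison the mean log2 signal of microglia markers was 9.58 to 9.79 in APP_KO and 9.83 to 9.95 in WT, and that of astrocyte markers 12.034 to 12.095 in APP_KO and 11.954 to 12.028 in WT. Both separated the groups (exact two-sided permutation p = 0.0286, adjusted 0.0715 over 30 tests), and their part in the Per3 difference was not tested.

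For APLP2_KO against WT the same Per3 probe set gave -0.22 ± 0.11, and for N_dCKO against WT -0.05 ± 0.11. By group mean the order was 419 ± 64.3 in APP_KO, 461 ± 56.7 in APLP2_KO, 519.6 ± 47.6 in N_dCKO and 536 ± 37.1 in WT (SD, n = 4), and each neighbour in that order overlapped the next. The interaction was 0.53 ± 0.16, with an unadjusted p of 0.0038 and a limma adjusted p of 0.999. The place of N_dCKO relative to WT depended on the summary. With the ratio of the 3′ to the 5′ Gapdh probe set, a measure of RNA integrity, as a covariate, the log2 differences of this probe set from WT were -0.44 ± 0.10 for APP_KO, -0.30 ± 0.10 for APLP2_KO and -0.30 ± 0.12 for N_dCKO.

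The other Per3 probe sets above the filter were dimmer, with signals of 64.6 to 265, and varied more. In APP_KO against WT their log2 fold changes were -0.20 ± 0.25, -0.31 ± 0.20 and 0.03 ± 0.23. In N_dCKO against WT they were 0.40 ± 0.25, 0.13 ± 0.20 and 0.39 ± 0.23, where 1421087_at gave -0.05. In N_dCKO against APP_KO all 4 were positive, at 0.31 ± 0.11 for 1421087_at and 0.60 ± 0.25, 0.44 ± 0.20 and 0.36 ± 0.23 for the others, with limma adjusted p of 0.506, 0.589, 0.655 and 0.780. Their deviations within groups correlated at 0.38 to 0.85, and probe sets of 1 gene are not independent readings. A mean over the 4 Per3 probe sets above the filter differed from WT by -0.21 ± 0.17 for APP_KO (limma adjusted p = 0.985). The difference was -0.08 ± 0.17 for APLP2_KO and 0.22 ± 0.17 for N_dCKO. Per3 probe sets 1460662_at and 1421086_at lay below the filter, at 52.1 to 113 and 2.12 to 55.5, and were not in that mean. In a fit without the filter they gave 0.03 ± 0.22 and 0.83 ± 0.44 in APP_KO against WT.

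**Figure D3:**
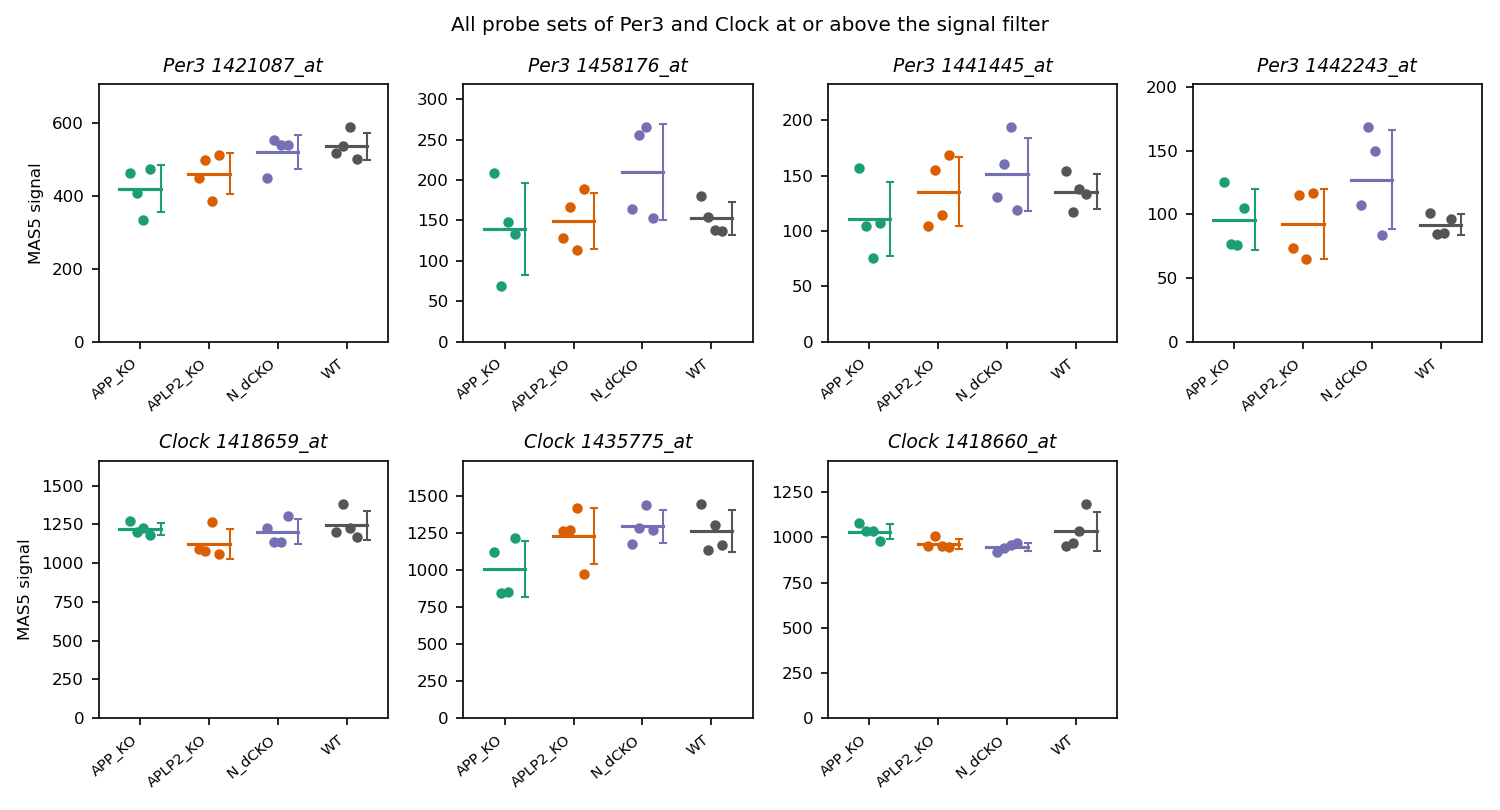
MAS5 signal (linear axes from 0) of the 4 Per3 and 3 Clock probe sets above the filter, by group; points are arrays, horizontal lines group means and vertical bars the SD. The separation of APP_KO (333 to 474) from WT (502 to 587) appears in Per3 1421087_at and in no other Per3 or Clock panel.

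Per1, the family member that also responds quickly to neuronal activity and glucocorticoids, had signals of 805, 629, 610.4 and 768 in APP_KO, 614, 648, 744 and 725 on APLP2_KO arrays, 694, 750.5, 925 and 906 in N_dCKO, and 709, 652, 605 and 667 in WT. N_dCKO arrays 2, 3 and 4 exceeded all WT arrays, and array 1 fell within them. The log2 fold change of N_dCKO against WT was 0.30 ± 0.11 (unadjusted p = 0.0111, limma adjusted p = 0.258), the smallest adjusted p of any clock probe set. In APP_KO and APLP2_KO against WT it was 0.09 ± 0.11 and 0.05 ± 0.11. By group mean Per1 ran 683 ± 61.9 in APLP2_KO, 703 ± 97.6 in APP_KO and 819 ± 114 in N_dCKO, with WT at 658 ± 42.9 (SD, n = 4), and all neighbours overlapped.

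Other features of the N_dCKO arrays moved in the same comparison. The mean log2 signal of 10 choroid plexus markers was 5.09, 5.75, 8.43 and 5.77 in N_dCKO, against 8.71 to 9.77 in WT. Of those 10 markers, 9 passed the filter. For Gapdh, the 3′ probe set over the 5′ probe set, which reflects RNA integrity, stood at 0.813 ± 0.0166 in N_dCKO and 0.764 ± 0.0153 in WT (SD, n = 4; exact two-sided permutation p = 0.0286, the smallest possible here, adjusted 0.0715 over 30 tests). The same ratio for Actb overlapped between the groups, at 1.63 ± 0.0734 in N_dCKO and 1.64 ± 0.0482 in WT (SD, n = 4). Its exact two-sided permutation p was 0.829, adjusted 0.857. Microglia markers, 9 of 10 measured and all above the filter, averaged 9.29 to 9.56 in N_dCKO and 9.83 to 9.95 in WT. Oligodendrocyte markers averaged 12.1 to 12.4 in N_dCKO and 12.7 to 13.0 in WT, and astrocyte markers 12.07 to 12.17 in N_dCKO and 11.95 to 12.03 in WT. Hippocampal neuron markers averaged 10.57 to 10.60 in N_dCKO and 10.65 to 10.74 in WT, and ependymal markers 7.24 to 7.65 in N_dCKO and 8.01 to 8.17 in WT. Each of these 6 marker means separated both groups, with the same exact and adjusted p as the Gapdh ratio. With the Gapdh ratio as a covariate the Per1 difference was 0.17 ± 0.14, and with the choroid plexus mean it was 0.53 ± 0.19, with limma adjusted p of 0.883 and 0.505. Without N_dCKO array 3, the one with choroid plexus signal nearest to WT, it was 0.24 ± 0.11. The Gapdh ratio and the choroid plexus mean each separated N_dCKO from WT. Fits with them as covariates therefore cannot tell their part from that of genotype. The part of these features in the difference was not tested.

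Per2, a further inhibitor, was read by probe set 1417602_at at 324 to 568 over all arrays, with log2 fold changes against WT of 0.04 for APP_KO, 0.02 for APLP2_KO and 0.19 for N_dCKO, each ± 0.15. The dimmer 1457350_at had -0.13 ± 0.20 in N_dCKO against WT, the opposite sign, and the pair correlated at 0.38 within groups. Neither separated the groups in any of the comparisons made. Probe set 1417603_at of Per2 was below the filter at 13.5 to 84.0.

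Cry1 and Cry2 encode cryptochromes, the partners of the PER proteins. Cry1 had signals of 326, 244, 305 and 323 in N_dCKO, 235, 194, 229 and 238 in APP_KO, 311, 303, 187 and 222 in APLP2_KO, and 287, 395, 115 and 230.4 in WT. All N_dCKO arrays lay above all APP_KO arrays, and the WT arrays spread over the range of the other 3 groups and beyond. The log2 fold change of N_dCKO against APP_KO was 0.40 ± 0.25 (limma adjusted p = 0.775). Cry1 and Clock 1418660_at were the 2 of 17 clock probe sets without overlap in this comparison, one higher and one lower, where 3.81% of all probe sets did not overlap.

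The Cry1 differences from WT depended on WT array 3, with a signal of 115, and on WT array 2, with 395. In N_dCKO against WT the log2 fold change was 0.33 ± 0.25 with all arrays and 0.00 ± 0.19 without WT array 3. In APP_KO against WT it was -0.07 ± 0.25 with all arrays and -0.40 ± 0.19 without WT array 3 (limma adjusted p = 0.933). Without WT array 2 the values moved the other way, to 0.57 and 0.17. Cry2 was steadier, at 887 to 1218 over all arrays, and its log2 fold changes against WT were 0.02 for APP_KO, -0.04 for APLP2_KO and 0.15 for N_dCKO, each ± 0.10. In APLP2_KO against WT, N_dCKO against WT and N_dCKO against APLP2_KO, the arrays overlapped for all 17 clock probe sets, where 4.14%, 6.77% and 4.81% of all probe sets did not overlap.

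Nr1d1 and Nr1d2 encode nuclear receptors that repress Arntl. Nr1d2 had signals of 4318 to 5289 over the 16 arrays, and its log2 fold changes against WT were 0.01 for APP_KO, -0.07 for APLP2_KO and 0.05 for N_dCKO, each ± 0.06. Its within-group SD of 0.09 log2 compares with a median of 0.16 over all tested probe sets. Probe set 1416959_at of Nr1d2 was below the filter at 25.3 to 99.6.

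Nr1d1 lay just above the filter and was noisy. Its signals were 134, 116, 110.5 and 106 in APP_KO, 74.9, 119.6, 49.2 and 98.0 on APLP2_KO arrays, 138, 72.3, 65.8 and 58.3 in N_dCKO, and 131, 62.4, 89.5 and 70.4 in WT. APP_KO arrays were close together, and each of the other groups held 1 array above 115 beside others below 100. The log2 fold change of APP_KO against WT was 0.41 ± 0.27 (limma adjusted p = 0.9998), and that of N_dCKO against APP_KO was -0.51 ± 0.27 (limma adjusted p = 0.718).

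Dbp, a clock output gene, had signals of 2775, 2928, 2373 and 2059.7 in N_dCKO, 2398, 2935, 1939 and 2268 in APLP2_KO, 1852, 2322, 1618 and 2341 in APP_KO, and 2384, 2206, 1764 and 2038 in WT (probe set 1438211_s_at). The groups overlapped, with the highest arrays in APLP2_KO and N_dCKO and the lowest in APP_KO. The log2 fold change was 0.27 ± 0.14 in N_dCKO against WT (limma adjusted p = 0.492) and 0.32 ± 0.14 in N_dCKO against APP_KO (limma adjusted p = 0.605). The second Dbp probe set, 1418174_at, gave 0.16 ± 0.12 and 0.29 ± 0.12. With the Gapdh ratio as a covariate the difference of N_dCKO from WT was 0.08 ± 0.17 for 1438211_s_at. This was the lowest of 30 alternatives for Dbp, which ran up to 0.36. The ratio separated N_dCKO from WT, so that fit cannot tell its part from that of genotype.

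Because Dbp varied within groups, its array-to-array deviations from the group mean were set against those of the other 9 genes, to see whether clock genes varied together among samples of 1 genotype. Over 16 arrays Dbp correlated negatively with Arntl, at Pearson r = -0.61 (permutation p = 0.0322, adjusted 0.239 over the 9 pairs) and Spearman rho = -0.65 (permutation p = 0.0212, adjusted 0.190). Without APP_KO array 3 and APLP2_KO array 2, the arrays farthest from the median of the Dbp deviations, r was -0.56. None of the 9 pairs passed after adjustment. The other r values were 0.49 for Nr1d1, 0.47 for Cry2, -0.44 for Clock, 0.38 for Cry1, 0.31 for Per3, 0.27 for Nr1d2, -0.22 for Per1 and -0.06 for Per2. Their permutation p-values ran from 0.0769 for Nr1d1 to 0.844 for Per2. Without the same pair of arrays, r was 0.03 for Per3, -0.08 for Nr1d2 and 0.26 for Cry2, which rest on those arrays at least in part. It was 0.435 for Nr1d1, -0.45 for Clock, 0.39 for Cry1, -0.40 for Per1 and -0.16 for Per2. Over all 16 arrays, median centring gave 0.07 for Clock and 0.41 for Cry1. The replicate block gave -0.63 for Clock and -0.02 for Cry1.

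**Figure D4:**
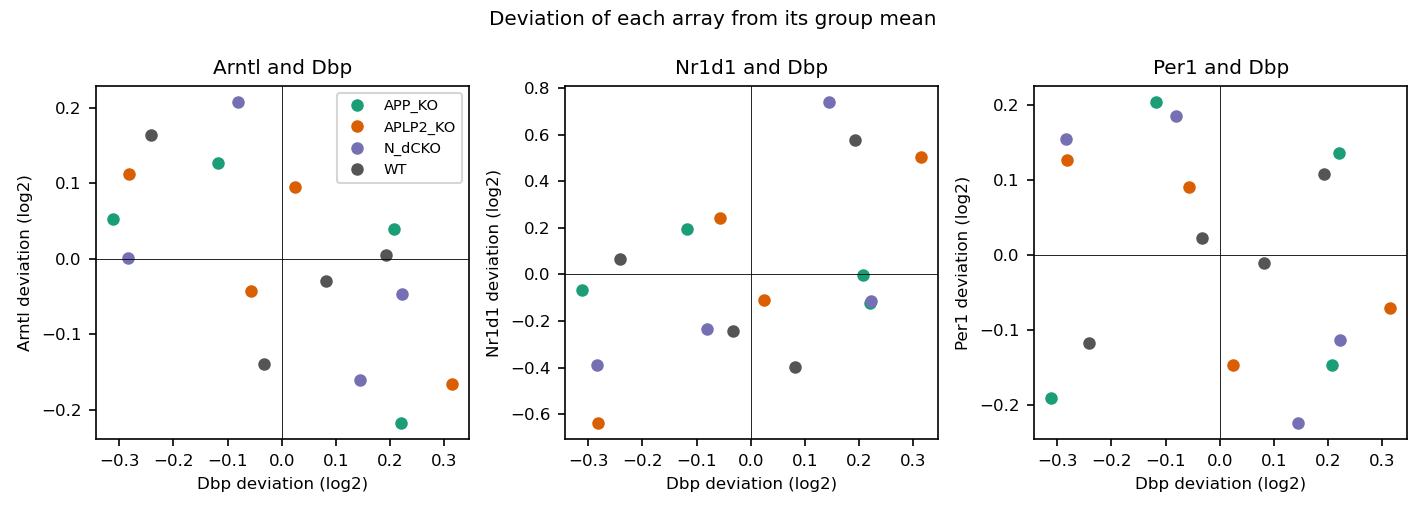
Deviation of each array from its group mean (log2) for Arntl, Nr1d1 and Per1 against Dbp, one point per array, coloured by group, 16 arrays per panel. Arntl falls with Dbp (r = -0.61), Nr1d1 rises with it (r = 0.49) and Per1 shows little relation (r = -0.22); none passed after adjustment over 9 pairs.

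Among 11667 genes, those whose within-group deviations were most like those of Dbp over the 16 arrays were Tnnt2 (r = 0.94), Phyhipl (0.87), Kcnip4 (0.86), Prkaa2 (0.85) and Zfp286 (0.85). The most opposite were Fam107a (-0.87), Ehd3 (-0.87), Arrdc4 (-0.86), Dio2 (-0.86) and Selenop (-0.85). Nr1d1 ranked 878 from the top of that list and Cry2 1035, and Arntl ranked 293 from the bottom. Many genes were therefore more like Dbp in these arrays than any clock gene was. These r values are a description of the same 16 arrays and carry no test.

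Other clock-related genes gave a similar picture, with 0 called. Of 22 further genes of the clock machinery and its outputs, 20 were on the array and 17 were tested. In N_dCKO against WT 9 of the 17 were positive, with a median log2 fold change of 0.03, and 2 had an unadjusted p below 0.05. Over all tested probe sets in that comparison, 52% were positive, 0.666% were called and 11.2% had an unadjusted p below 0.05. Tef and Hlf, relatives of DBP, gave -0.04 ± 0.06 and 0.08 ± 0.15, and Csnk1d and Csnk1e, kinases of the PER proteins, -0.01 ± 0.06 and 0.18 ± 0.08.

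Npas2, a paralogue of Clock that can pair with ARNTL, came nearest to the threshold. Its signals were 667, 531, 489.7 and 605 in N_dCKO, 441, 434, 339.8 and 416 in APP_KO, 497, 488, 445 and 488 in APLP2_KO, and 492, 423, 405 and 386 in WT. All N_dCKO arrays were higher than all APP_KO arrays, and N_dCKO array 3 fell within the WT range. The log2 fold change was 0.41 ± 0.11 in N_dCKO against WT (limma adjusted p = 0.0912) and 0.48 ± 0.11 in N_dCKO against APP_KO (limma adjusted p = 0.0831). Adding the choroid plexus mean to the fit gave 0.14 ± 0.18 and 0.23 ± 0.17, and adding the Gapdh ratio 0.31 ± 0.14 and 0.41 ± 0.12. The mean over its probe sets above the filter gave 0.39 ± 0.15 and 0.26 ± 0.15, with limma adjusted p of 0.281 and 0.732. Leaving out each array in turn, the adjusted p ran from 0.0603 to 0.288 against WT and from 0.0337 to 0.326 against APP_KO, the lowest of each without N_dCKO array 3. The 3 other N_dCKO arrays were the highest of the 16 in Npas2 and the lowest in choroid plexus markers.

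Signals that can reset or drive peripheral clocks were read from lists of glucocorticoid-responsive, temperature-responsive and immediate early genes. None of the 15, 9 and 12 tested genes of these lists was called by limma in any comparison, and 2, 1 and 1 of them had an unadjusted p below 0.05 in N_dCKO against WT, where 11.2% of all probe sets had. In APP_KO, APLP2_KO and N_dCKO against WT, 11, 10 and 10 of the 12 immediate early genes were positive. Over all tested probe sets 50.3%, 50.4% and 52% were. Their median log2 fold changes were 0.13, 0.18 and 0.25, beside 0.00, 0.00 and 0.01 over all tested probe sets. The 3 comparisons share WT, and genes of this list are not independent readings. Fos, Arc and Npas4, for example, were all highest in APP_KO array 2. In the 3 comparisons Egr2 gave 0.73 ± 0.31, 0.17 ± 0.31 and 0.83 ± 0.31. Of the 15 glucocorticoid-responsive genes, 10 were positive in N_dCKO against WT (median 0.02), and Zbtb16, a glucocorticoid-induced zinc finger factor, came nearest to the threshold at 0.47 ± 0.11 (limma adjusted p = 0.0555). Leaving out each array in turn, that p ran from 0.0100 to 0.174. It was below 0.05 without APP_KO array 1, APP_KO array 2 or WT array 1, and highest without WT array 2, N_dCKO array 3 or WT array 3 (0.174, 0.144 and 0.133). With the Gapdh ratio as a covariate the Zbtb16 difference was 0.30 ± 0.13 (limma adjusted p = 0.642). With the mean over its probe sets above the filter it was 0.40 ± 0.13 (limma adjusted p = 0.180). Sgk1 gave -0.34 ± 0.15 in the same comparison. Of the 9 temperature-responsive genes, 3 were positive, with a median of -0.05, and Hspa1a, a heat shock chaperone, gave -0.33 ± 0.13. The part of these signals in the levels of the clock genes was not tested.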

How the data were processed

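RNA was measured on 16 arrays. The authors deposited a linear intensity for each probe set, computed with MAS5 according to the submitters' processing notes, which name no version here. Each array had a 2% trimmed mean near 500, and no further normalization was applied. Of 45101 probe sets, 64 were controls, 34958 had 1 gene symbol in the annotation, 932 had several and 9211 had no entry.

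Values were transformed as log2(signal + 9), which understates the change of dim genes, and 22519 probe sets whose mean reached the median over all probe sets (6.60) were tested. limma 3.58.1 in R 4.3.3 fitted 1 mean per group with an intensity trend; p-values were two-sided and adjusted by Benjamini-Hochberg over all tested probe sets, with a threshold of 0.05. Log2 fold changes carry ± SE, and signals ± SD. The fit was tested on simulated data. The main fit paired no arrays. Same-numbered arrays of APP_KO and WT had deviations from the group means that all correlated over 0.1 (4 pairs, 0.18 to 0.30). They were treated as paired only in alternative fits with a replicate block. This pairing comes from the data, not the labels, which share only numbers. Correlations used 100000 permutations of arrays within groups. Precision is limited by the 4 arrays per group. The members, gene lists and named genes, described for each gene by the probe set with the highest mean and in each list by the smallest p, were chosen with earlier results of these data known. Promoters are from RefSeq, GRCm38.p6; the array values carry no genome build. Alternatives were other normalizations, pseudocounts, filters and probe set summaries, no trend, array weights, a replicate block, covariates, only the compared groups, and each array left out.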

Additional observations from a re-analysis of the deposited data

Results flagged for a closer look

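In 68 groups of 4 arrays (17 probe sets by 4 genotypes), 3 had 1 array far from the others by Dixon's test at its 95% critical value of 0.829, about the 1 in 20 that chance gives. Per3 1421087_at read 449.0 in N_dCKO array 1, below the 538 to 553 of the other N_dCKO arrays (ratio of gap to range 0.863). Clock 1418659_at read 1266 in APLP2_KO array 3, above the 1059.9 to 1092 of the other APLP2_KO arrays (ratio 0.833). Clock 1418660_at read 1008 in APLP2_KO array 2, above the 946 to 951 of the other APLP2_KO arrays (ratio 0.930).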

How the results depend on the processing

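Under 31 alternatives to the fit, 209 recomputed counts of called clock probe sets were all 0, and the lowest adjusted p of a clock probe set was 0.209 (N_dCKO against WT, mean over probe sets). The 9 Dbp pairs stayed at 0 passing under their 23 alternatives, the lowest adjusted p being 0.0557 for Clock with the replicate block. Of 1776 recomputed log2 fold changes of the 10 clock genes, 64 had another sign than the reported value. The reported value was at most 0.17 in size for these. Of the 1776, 16 moved by more than the spread between replicates, a limit that was wider for the interaction. Many of the 1776 could not move. The difference of group means stays the same, for example, with the replicate block or without an array of a group not compared. Leaving out each array in turn moved the Per3 difference of APP_KO from WT between -0.42 and -0.26 and the Per1 difference of N_dCKO from WT between 0.24 and 0.38. Median centring moved the median of all probe sets by up to -0.09.

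With the replicate block within APP_KO and WT, an alternative chosen after seeing the data, 0 clock probe sets were called. The lowest limma adjusted p of a clock probe set was 0.353. For Per3 1421087_at the difference was -0.36 ± 0.12, with a higher limma adjusted p of 0.456. This block changed no call on a clock or other named gene, and the calls over all probe sets numbered 9 in place of 3. In the other pairs of groups 2 of 20 same-numbered pairs of arrays correlated over 0.1, so their numbers are not taken to pair samples. The block over all 16 arrays called 0 clock probe sets. It called Npas2 in N_dCKO against WT and against APP_KO (adjusted p = 0.0278 and 0.0215), and Npas2 was also called against APP_KO without N_dCKO replicate 3 (0.0337). Zbtb16 in N_dCKO against WT was called under 7 alternatives, with adjusted p over all alternatives from 0.0100 to 0.642. Without APP_KO replicate 1, Zbtb16 and Fkbp5 were called in N_dCKO against APP_KO (0.0132 and 0.0263). The causes were not tested. Only 4 arrays per group limit the precision, and dim genes such as Nr1d1 have the widest intervals.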
